A study of Mus musculus with 71 samples.

Results

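RING1B peaks at non-coding RNA genes were taken from the deposited annotation of a RING1B ChIP-seq time course in mouse cells. A peak belonged to the set when its annotated gene was of type ncRNA and lay with its transcription start within 10 kb of the peak. The rule gave 676 peaks at 599 genes, out of 15091 peaks in the table (4.48%). Of these genes 526 had 1 such peak and 73 had several, at most 3. Among all 1797 ncRNA peaks of the table at any distance, those just inside the limit were at Hotairm2, Dlx4os and C920009B18Rik, with 5.91, 3.74 and 5.91 tags per 10 M, and those just outside were at Terc, Mir3108 and Mir8108, with 29, 19 and 3.17 tags per 10 M.

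The cells were J1 embryonic stem cells (ESC), a mouse line, in which CBX7 was either a CaPS form (CBX7-CaPS) or wild type (CBX7-WT). Per the series title, the question was how a Polycomb domain found in committed cells affects differentiation when it is put into the complex in pluripotent cells. Per the labels, ESC were grown with leukaemia inhibitory factor on feeder fibroblasts, and neural progenitor cells (NPC) were made from aggregates treated with retinoic acid and collected at day 6 and day 8. The time course had 2 libraries for each of CaPS and WT at each of ESC, day 6 and day 8, numbered as experiments 3 and 5, and the ESC tables of CBX7 and RING1B had 3 CaPS and 3 WT libraries, numbered 1 to 3. No label says whether a genotype was 1 clone or several, or that libraries came from separate cultures. Every p-value and SE below therefore rests on the spread between these libraries, which may be technical. The main fits took that spread from its trend over all peaks, not from the values of the single peak.

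RING1B is the ubiquitin ligase subunit of Polycomb repressive complex 1 (PRC1), and CBX7 is the subunit of that complex that binds H3K27me3, the histone mark of the second Polycomb complex. Polycomb complexes sit mainly at CpG-rich starts of silent developmental genes in ESC, often over whole gene clusters, and leave the genes of a lineage as cells enter it. Many non-coding RNA genes lie head to head with, antisense to or inside such developmental loci, and microRNAs of the nervous system and of the Hox clusters are known Polycomb targets. ChIP-seq signal in a mixed culture is an average over cells, so fewer bound cells and less binding per cell cannot be told apart.

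The mature microRNAs below belong to the member microRNA genes that the results turn on, and show which member genes encode the same regulator. Of 113 member microRNA genes, 103 matched a mature sequence in RefSeq (GRCm38.p6), giving 167 mature sequences with 159 distinct seeds (bases 2 to 8, in capitals), of which 8 seeds were shared by 10 member genes. Mir9-1 on chromosome 3 and Mir9-3 on chromosome 7 encode the same pair of mature strands:
miR-9-5p: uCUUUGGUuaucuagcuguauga
miR-9-3p: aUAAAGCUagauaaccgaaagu
Mir193a and Mir193b share the seed ACUGGCC but differ outside it:
miR-193a-3p: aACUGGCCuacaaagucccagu
miR-193b-3p: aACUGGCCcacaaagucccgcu
Mir129-2 and Mir137, both expressed in the brain, and Mir196a-2, which lies in the HoxC cluster, have seeds of their own:
miR-129-5p: cUUUUUGCggucugggcuugc
miR-129-2-3p: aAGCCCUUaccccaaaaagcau
miR-137-3p: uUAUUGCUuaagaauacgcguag
miR-196a-5p: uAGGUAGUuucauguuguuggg

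Promoter windows of 4 member genes are shown because their peaks cover the window and because RING1B there behaved in different ways. Each runs from 250 bases before to 50 bases after the RefSeq start, in the direction of transcription, with every CG in capitals. At Gm38438, Gm30731 and Pantr2 RING1B was higher in CaPS than in WT cells at day 8, and at Sox6os it fell in both genotypes. The windows are chrX:60893403-60893702 (plus strand), chr4:22490298-22490597 (plus strand), chr1:42713405-42713704 (minus strand) and chr7:116031729-116032028 (plus strand), in that order:
Gm38438: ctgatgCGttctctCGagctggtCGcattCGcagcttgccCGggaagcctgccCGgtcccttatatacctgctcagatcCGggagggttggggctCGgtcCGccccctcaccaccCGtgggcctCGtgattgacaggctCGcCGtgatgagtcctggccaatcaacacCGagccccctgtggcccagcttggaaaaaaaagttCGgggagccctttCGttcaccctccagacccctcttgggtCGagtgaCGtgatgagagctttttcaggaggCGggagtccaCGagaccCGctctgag
Gm30731: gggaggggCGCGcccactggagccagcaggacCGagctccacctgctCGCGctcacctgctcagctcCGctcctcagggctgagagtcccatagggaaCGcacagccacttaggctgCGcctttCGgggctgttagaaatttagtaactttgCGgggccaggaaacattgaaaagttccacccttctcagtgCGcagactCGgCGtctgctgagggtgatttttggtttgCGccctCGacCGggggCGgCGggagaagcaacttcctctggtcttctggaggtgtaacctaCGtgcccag
Pantr2: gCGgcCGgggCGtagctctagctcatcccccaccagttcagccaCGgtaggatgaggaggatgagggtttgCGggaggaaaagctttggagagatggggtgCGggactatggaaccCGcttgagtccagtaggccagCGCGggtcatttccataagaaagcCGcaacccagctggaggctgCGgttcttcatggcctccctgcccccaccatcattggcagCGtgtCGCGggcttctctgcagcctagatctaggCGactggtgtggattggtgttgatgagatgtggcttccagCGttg
Sox6os: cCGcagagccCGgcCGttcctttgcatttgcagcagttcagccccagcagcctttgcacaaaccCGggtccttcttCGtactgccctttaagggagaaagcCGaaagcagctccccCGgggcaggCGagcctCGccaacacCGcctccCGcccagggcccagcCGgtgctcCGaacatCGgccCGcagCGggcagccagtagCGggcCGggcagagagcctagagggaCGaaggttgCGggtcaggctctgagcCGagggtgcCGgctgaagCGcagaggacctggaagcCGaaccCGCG
They hold 21, 19, 16 and 26 CG dinucleotides, with observed over expected ratios of 0.73, 0.68, 0.61 and 0.75. Over the 374 member genes with a window the median ratio was 0.53, against 0.38 over all 32851 windows of the RefSeq table and 0.24 over the 11589 windows of genes that RefSeq calls neither coding nor pseudogene. A ratio above 0.6 was found for 45.7% of member genes and for 35.8% of all windows. It was found for 58.5% of the 147 member genes whose peak averaged at least 20 tags per 10 M, and for 37.4% of the 227 with weaker peaks. The letters TCCCGCC, searched on both strands, were present at Gm38438, Gm30731 and Sox6os, in 15.5% of member windows and in 11.3% of all windows. CACGTG, which reads the same on both strands, was in none of the 4, in 11.8% of member windows and in 7.15% of all windows. These matches describe the letters in the windows and were not tested as binding sites.

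Most member peaks were small and a few were very large. The values are RING1B tags per peak scaled to 10 M tags per library, and the mean over the 12 time-course libraries ran from 1.84 to 13038.1 with a median of 10.2, against a median of 14.5 over the 8484 peaks within 10 kb of the start of a protein-coding gene. A mean of at least 20 was reached by 234 members (34.6%) and by 42.0% of the coding peaks, and 24 members reached 1000. The 10 strongest held 49.1% of the members' signal in WT ESC. The median width was 710 bases, against 902 bases for coding peaks, while 38 members (5.62%) and 2.77% of coding peaks were wider than 10000 bases.

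The strongest members lay over developmental regulators. In order of mean signal, 9 of the 10 strongest were annotated to Mir196a-2 (in the HoxC cluster, 136794 bases wide), Hoxb5os (HoxB cluster), Dlx6os2 (over Dlx5 and Dlx6), Gm26688 (Tfap2a), 5033428I22Rik (Hand2), Six3os1 (Six3), Dlx1as (Dlx1 and Dlx2), Gm30731 (Pou3f2) and Sfta3-ps (Nkx2-1). These coding genes encode transcription factors of the embryo. In all, 316 members (46.7%) overlapped the body of a protein-coding gene, and the signal of such a peak cannot be assigned to the RNA gene rather than the coding gene. By position, 30.9% of members were annotated to a promoter, 28.3% to an intron and 22.8% to intergenic sequence, against 28.7%, 41.1% and 12.4% of coding peaks. Within 1 kb of the start lay 47.9% of members and 61.4% of coding peaks.

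The 12 time-course libraries held 11.3 to 25.34 M tags in experiment 3 and 2.01 to 6.2 M in experiment 5. Where a library showed 0, up to 3 tags could have been missed, which came to 1.18 to 14.95 tags per 10 M, counting error only, and 0 to 122 members were at 0 in a library. CaPS day 6 of experiment 5 stood apart: 12.1% of its tags lay in peaks, against 5.61% in CaPS day 6 of experiment 3 and 5.89% and 6.59% in WT day 6. The genes chosen to check the labelled cell types were read only for RING1B, which marks silent genes: by day 8 it fell at 4 of 7 neural progenitor genes with a peak in CaPS and 5 in WT, at 2 of 5 feeder fibroblast genes in CaPS and 5 in WT, and at 1 of 4 ESC genes in each. Among all peaks with a mean of at least 20 it fell at 36.0% in CaPS and 54.8% in WT. The few genes were not tested against these shares and do not settle the cell type. Of 3 endoderm genes Gata4 was lower in CaPS than in WT cells at day 8 (log2 fold change -2.28, adjusted p = 0.000174, limma), while Sox17 (0.77) and Foxa2 (-0.08) did not pass.

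RING1B at the members fell during differentiation in both genotypes. At day 8 relative to ESC it fell at 113 members in CaPS cells (16.7% of members, against 14.1% of all 15091 peaks) and at 153 in WT cells (22.6%, against 20.9% of all peaks), by limma with Benjamini-Hochberg adjustment over all peaks at 0.05. It rose at 15 members in CaPS cells (2.22%, against 1.63% of all peaks) and at 6 in WT cells (0.888%, against 1.73%). The median log2 change was -0.56 in CaPS and -0.71 in WT, close to -0.48 and -0.61 over all peaks. The 80 members that fell in both were 70.8% of those in CaPS and 52.3% of those in WT. The same overlap was not computed over all peaks, so it cannot be called a trait of the members. These counts move with single libraries. The CaPS falls numbered 48 to 64 without either CaPS ESC or either CaPS day-8 library, and the WT falls numbered 98 without WT ESC of experiment 3 and 96 without WT day 8 of experiment 3. The CaPS rises numbered 3 without CaPS day 8 of experiment 5, 4 without CaPS ESC of experiment 5 and 9 without CaPS day 8 of experiment 3, and the 6 WT rises 1 without WT ESC of experiment 5, 3 without WT day 8 of experiment 5 and 11 without WT ESC of experiment 3.

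The direction of the medians rests on the authors' scaling to total tags. When every library was instead given the same sum over all peaks, the median change of all peaks shifted by 0.61 in CaPS and 0.97 in WT at day 8, the members' medians became 0.07 and 0.28, and the calls became 49 lower and 40 higher in CaPS and 49 lower and 52 higher in WT. Of 99 calls of single named members, 92 held under this scaling and none changed sign. Each rise or fall below is on the deposited scale.

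Over all 132 microRNA peaks RING1B fell at 25 in CaPS (18.9%) and at 32 in WT (24.2%) by day 8, beside 14.1% and 20.9% of all peaks. Those named here were listed for their roles or passed with a mean of at least 20. Mir9-3 and Mir9-1 encode miR-9, which promotes neuronal differentiation of neural progenitors. In CaPS cells Mir9-3 carried 3250.2 and 3147 tags per 10 M in ESC, 633 and 1309 at day 6, and 346 and 585 at day 8 (experiments 3 and 5). In WT cells it carried 2910.1 and 3380.4 in ESC, 888 and 947 at day 6, and 416 and 629 at day 8. All 4 day-8 libraries lay below all 4 day-6 libraries, and those below all 4 ESC libraries, with both genotypes intermixed at each stage. The log2 change at day 8 was -2.83 ± 0.45 (SE) in CaPS cells (adjusted p = 2.85e-08, limma) and -2.61 ± 0.45 in WT cells (adjusted p = 1.54e-07). Mir9-1, with the same mature strands, fell by 2.48 in CaPS and by 2.55 in WT on the log2 scale.

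Mir375 encodes a microRNA of pancreatic islets and other endocrine cells. In CaPS cells its peak held 268 and 271 tags per 10 M in ESC, 45.1 and 88.8 at day 6, and 45.2 and 52.9 at day 8. The WT libraries held 313 and 264 in ESC, 50.6 and 62.3 at day 6, and 38.9 and 61.3 at day 8. The day-6 and day-8 values overlapped each other and lay below every ESC value, and the genotypes overlapped at each stage. The day-8 change was -2.44 in CaPS (adjusted p = 2.63e-09, limma) and -2.53 in WT (adjusted p = 2.28e-10). Mir124a-3, 1 of the genes of the neuronal microRNA miR-124, changed by -2.03 in CaPS and -2.35 in WT, and Mir129-2 by -2.04 and -2.01, all past the threshold. Mir193b fell in CaPS (log2 change -1.07, adjusted p = 0.0328) and in WT (-1.94, adjusted p = 5.47e-06, limma). Mir137, linked to neurogenesis, passed in WT (-1.25, adjusted p = 0.0035) but not in CaPS (-0.87, adjusted p = 0.0775, limma), and the difference between genotypes did not pass either (0.38 ± 0.50, SE, adjusted p = 0.911).

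MicroRNA peaks that fell in both genotypes also included Mir7680, Mir1932, Mir8104, Mir3089, Mir34c and Mir670. RING1B rose at 1 microRNA peak in CaPS and at 3 in WT, and the 132 changed by a median of -0.73 in CaPS and -0.74 in WT, against -0.48 and -0.61 over all peaks. The widest microRNA peak, at Mir196a-2, spans the HoxC cluster and passed in neither genotype: CaPS ESC held 15897 and 17288 tags per 10 M, CaPS day 8 held 5517 and 11268, WT ESC held 17151 and 19423, and WT day 8 held 6327 and 15075. Its change was -1.07 ± 0.86 (SE) in CaPS and -0.90 ± 0.86 in WT, and the 2 experiments differed widely at day 8. Mir290a, of the microRNA cluster that marks pluripotent cells, had weak signal: in CaPS 24.9 and 20.7 in ESC, 52.6 and 97.0 at day 6, and 23.5 and 42.1 at day 8. It rose in CaPS at day 6 (log2 change 1.62, adjusted p = 0.00744, limma) and not at day 8 (0.46, adjusted p = 0.528).

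**Figure D1:**
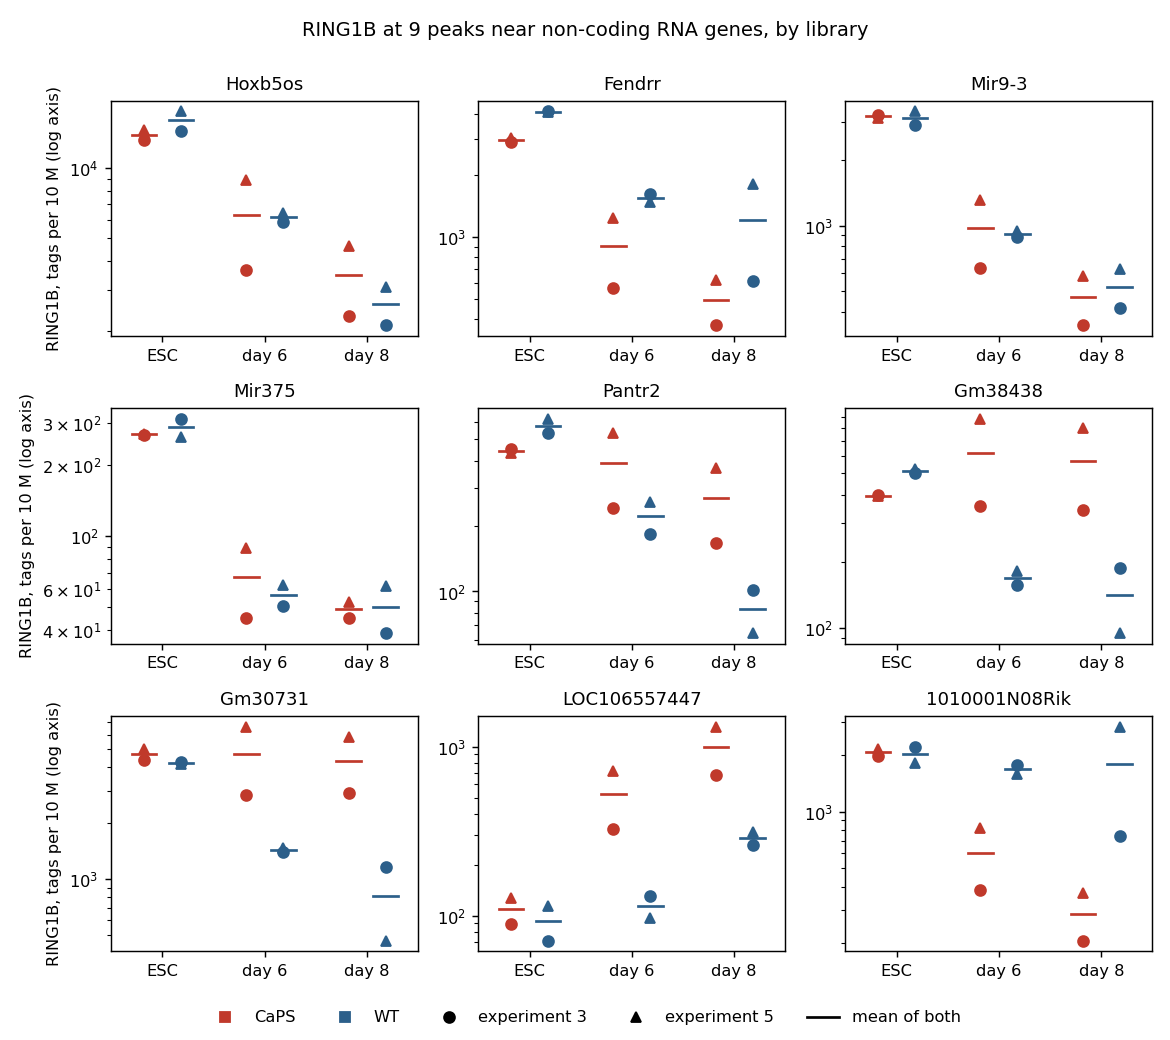
RING1B at 9 member peaks in every time-course library, as tags per 10 M on a log axis, for ESC, day 6 and day 8; CaPS libraries are red and stand left of the WT libraries in blue, circles are experiment 3, triangles experiment 5, and bars are means. Mir9-3, Mir375, Fendrr and Hoxb5os fall with time in both genotypes, LOC106557447 rises, and Gm38438, Gm30731 and 1010001N08Rik separate by genotype at day 8.

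RNAs on the opposite strand of developmental genes gave the same picture at single loci. Hoxb5os, antisense within the HoxB cluster, carried in CaPS cells 13158 and 14509 tags per 10 M in ESC, 3662 and 8892 at day 6, and 2314 and 4627 at day 8. In WT cells it carried 14445 and 17481 in ESC, 5879 and 6439.7 at day 6, and 2119 and 3092 at day 8. The day-8 values lay below every ESC value in both genotypes, and the genotypes overlapped at day 8. The change was -2.08 in CaPS (adjusted p = 0.0261, limma) and -2.63 in WT (adjusted p = 0.00173), whereas the HoxC peak did not pass. As the peak covers Hoxb2 to Hoxb7, this is a value of the cluster.

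Sox6os, antisense to the transcription factor gene Sox6, carried in CaPS cells 1289 and 1498 tags per 10 M in ESC, 257 and 543 at day 6, and 179 and 305 at day 8. WT cells carried 1488 and 1602 in ESC, 393 and 433 at day 6, and 169 and 289 at day 8. Every differentiated library lay far below every ESC library, and the genotypes overlapped at both later stages. The day-8 change was -2.57 ± 0.39 (SE) in CaPS (adjusted p = 5.38e-09, limma) and -2.80 ± 0.39 in WT (adjusted p = 5.49e-11). The separate peak annotated to Sox6 itself was weak, with a mean of 15.7, and did not pass in CaPS (-0.85, adjusted p = 0.333) or in WT (0.23, adjusted p = 0.82).

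Zeb2os, opposite the epithelial to mesenchymal transition regulator Zeb2, changed by -1.57 in CaPS and -2.70 in WT. Gad1os, beside the gene of a GABA-synthesising enzyme, changed by -1.15 and -1.58, and Ptf1aos, beside the pancreas and hindbrain factor Ptf1a, by -1.78 and -1.72, all past the threshold. In contrast Six3os1 (-0.85 in CaPS and -0.99 in WT), Dlx1as (-0.78 and -0.86), Dlx6os2 (-0.58 and -1.16) and Evx1os (-0.58 and -1.05) did not pass in either genotype. Of the 35 opposite-strand peaks, 17 of which had a mean of at least 20, 9 fell (25.7%) and 1 rose in CaPS, and 11 fell (31.4%) and none rose in WT. The shares that fell were 14.1% and 20.9% of all peaks, and 36.0% and 54.8% of those with a mean of at least 20.

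Fendrr, a long non-coding RNA of the lateral mesoderm transcribed away from Foxf1, carried in CaPS cells 2898 and 3056 tags per 10 M in ESC, 569 and 1237 at day 6, and 373 and 616 at day 8. In WT cells it carried 4105 and 4069.7 in ESC, 1619 and 1485 at day 6, and 613 and 1819.5 at day 8. CaPS lay below WT without overlap in ESC and at day 6, and overlapped it at day 8. It changed by day 8 by -2.63 in CaPS (adjusted p = 1.36e-06, limma) and by -1.95 in WT (adjusted p = 0.000359), and the genotypes did not differ past the threshold at day 8 (-1.14, adjusted p = 0.347). Fendrr is on chromosome 8, where the median difference between CaPS and WT ESC over all peaks with a mean of at least 20 was -0.30, against -0.02 on the other chromosomes; the part of this in the Fendrr values was not tested.

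RNAs with known or named neural links lay mostly under H3K27me3. Of 13 such peaks, 12 of which had a mean of at least 20, 84.6% overlapped an ESC H3K27me3 peak, against 59.0% of members with a mean of at least 20 and 24.3% of all members. The 13 were also stronger and wider, with a median mean of 330.6 and a median width of 8282 bases. Over all members these medians were 10.2 and 710 bases. Whether the overlap differs from that of peaks of like signal and width was not tested. RING1B fell at 5 (38.5%) and rose at 1 in CaPS, and fell at 8 (61.5%) and rose at none in WT. Of all peaks with a mean of at least 20 it fell at 36.0% in CaPS and 54.8% in WT. Miat, a neural long non-coding RNA, fell by 0.97 in CaPS (adjusted p = 0.0469, limma) and by 1.46 in WT (adjusted p = 0.000568). Rmst, an RNA of midbrain and neural progenitors, was the one that rose in CaPS (log2 change 1.74, adjusted p = 0.0089), with -0.31 in WT (adjusted p = 0.726, limma). Its levels were low, at 23.1 and 48.95 tags per 10 M in CaPS day 8 and 14.1 and 6.20 in CaPS ESC. The CaPS ESC library of experiment 5 held 2.42 M tags, where 3 tags come to 12.4 per 10 M.

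The 3 peaks of the imprinted list had means of 3.35 to 19.6 tags per 10 M, around the members' median of 10.2. Airn, the imprinted antisense RNA of Igf2r, fell in WT (-1.46, adjusted p = 0.026, limma) and had -1.30 in CaPS (adjusted p = 0.0679), while Kcnq1ot1 and Peg13 passed in neither. None of the 3 peaks at the X-inactivation RNAs Ftx and Tsix passed at day 8, and their means were 4.20 to 9.70 tags per 10 M. Igf2os, beside the imprinted growth factor gene Igf2, had far more: in CaPS cells 1153 and 1447 in ESC, 409 and 813 at day 6, and 213 and 314 at day 8, and in WT cells 1074 and 1076 in ESC, 815 and 749.8 at day 6, and 361 and 1071 at day 8. It fell in CaPS (-2.32, adjusted p = 7.97e-07, limma) and did not pass in WT (-0.79, adjusted p = 0.155), but the difference between the genotypes' changes did not pass (-1.53 ± 0.57, SE, adjusted p = 0.407).

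Few members gained RING1B. LOC106557447, an uncharacterized gene on chromosome 4, carried in CaPS cells 89.8 and 128 tags per 10 M in ESC, 326 and 718 at day 6, and 683 and 1317 at day 8. The WT libraries carried 71.2 and 114 in ESC, 130.4 and 97.2 at day 6, and 262 and 313 at day 8. Day-8 values lay above every ESC value in both genotypes, and CaPS lay above WT without overlap at days 6 and 8. It and Platr30, named as a pluripotency associated transcript, were the 2 members that rose at day 8 in both genotypes, by 3.13 and 1.42 in CaPS and by 1.66 and 1.1 in WT. Kis2 (2.5) and C630043F03Rik (2.18) passed in CaPS, with 0.59 and 0.66 in WT. BB283400 (1.21) and Mir6991 (1.27) passed in WT, with 0.87 and 0.48 in CaPS.

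Members named only by clone or locus identifiers made up 457 peaks, of which 72 fell (15.8%) and 9 rose in CaPS. In WT 99 fell (21.7%) and 2 rose. Of all peaks 14.1% fell and 1.63% rose in CaPS, and 20.9% fell and 1.73% rose in WT. The largest falls in WT were at 4833428L15Rik (-3.22, over Dscaml1), Gm10421 (-3.10, over Ptprn2), 1810021B22Rik (-2.93, over Panx2) and Gm26851 (-2.90, over the protocadherin gene Pcdh19), and the same peaks changed by -2.12, -2.12, -2.45 and -1.76 in CaPS, all past the threshold. Of the 316 peaks that overlap a coding gene 67 fell in CaPS (21.2%) and 96 in WT (30.4%). Of the 360 that do not, 46 fell in CaPS (12.8%) and 57 in WT (15.8%). Peaks outside coding genes were weaker, with a median mean of 7.81 against 16.

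**Figure D2:**
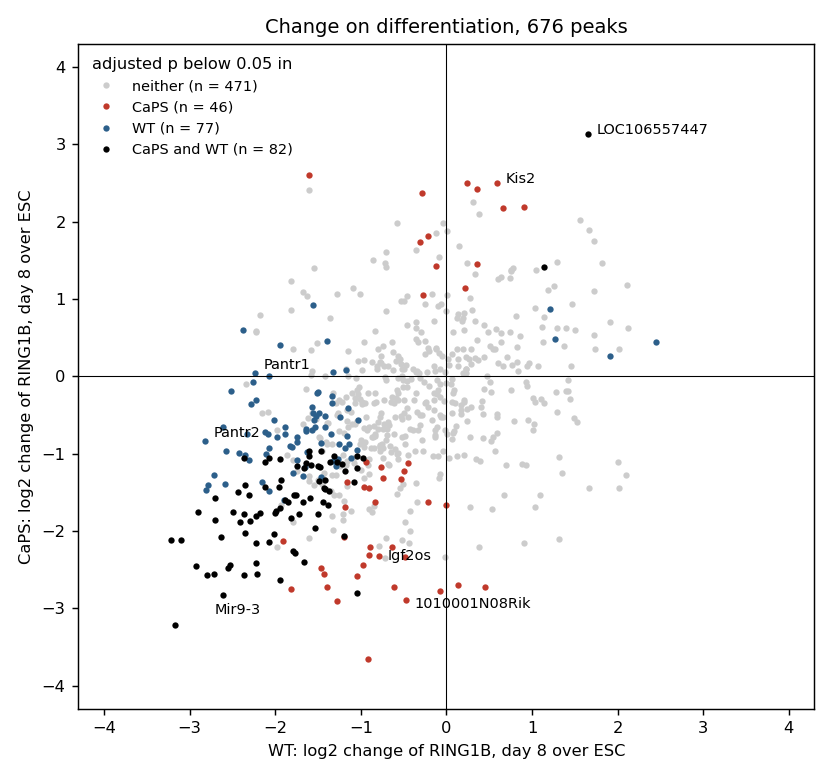
Log2 change of RING1B at day 8 over ESC in CaPS cells (vertical axis) and WT cells (horizontal axis) for the 676 member peaks, coloured by whether the change passed in both genotypes (82), in CaPS only (46), in WT only (77) or in neither (471). Peaks that passed in both lie mostly at negative values on both axes.

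At day 6 fewer members were called lower in CaPS than in WT, and both counts rest on single libraries. RING1B fell at 38 members in CaPS (5.62%, against 5.06% of all peaks) and at 114 in WT (16.9%, against 14.6%), and rose at 22 in CaPS (3.25%, against 2.45%) and 9 in WT (1.33%, against 1.61%). The CaPS count of 38 was 6 without CaPS ESC of experiment 5, 11 without CaPS ESC of experiment 3, 25 without CaPS day 8 of experiment 3 and 11 without the block. The WT count of 114 was 31 without WT day 6 of experiment 5, 55 without WT ESC of experiment 3 and 69 without the replicate block. The 22 that rose in CaPS became 3 without CaPS day 6 of experiment 5, the library that stood apart, and 1 without CaPS ESC of experiment 5, and the 9 in WT became 0 without WT ESC or WT day 6 of experiment 5. Among the 234 members with a mean of at least 20, the median CaPS change at day 6 was -0.82 within experiment 3 and 0.20 within experiment 5, against -0.88 and -0.87 in WT. The 19 members that fell in both genotypes included Mir9-3, Mir9-1, Mir375, Mir129-2, Mir124a-3, Sox6os, Fendrr and Zeb2os.

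In ESC the genotypes hardly differed in this assay. No member had less RING1B in CaPS than in WT by limma (0.0265% of all peaks did) or by edgeR, with 28 at an unadjusted p of 0.05, 1 had more (0.0398% of all peaks), and the median log2 difference was 0.02, against 0.05 over all peaks. The 1 was Mir681, with 20.6 and 33.1 tags per 10 M in CaPS and 9.68 and 0 in WT (log2 difference 3.05, adjusted p = 0.0038, limma). In the WT library at 0 a count of 3 tags would give 11, so this difference lies near the limit of counting. It was lost with a pseudocount of 5, without the replicate block and by edgeR.

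At day 6 RING1B was higher in CaPS than in WT at 23 members (3.66% of all peaks were) and lower at 2 (0.325% of all peaks). Without CaPS day 6 of experiment 5, or without WT day 6 of experiment 5, 1 member was higher and 1 was lower. Within experiment 3 the median difference over members with a mean of at least 20 was 0.09, and within experiment 5 it was 0.87. The 2 that were lower were 1010001N08Rik and C430049B03Rik, and those higher included Kis2 (log2 difference 2.13, adjusted p = 2.8e-06, limma), Gm38438 and LOC106557447.

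At day 8 the genotypes differed at 16 members. RING1B was higher in CaPS at 12 (1.78% of members, against 0.769% of all peaks) and lower at 4 (0.592%, against 0.245%), and among coding peaks the shares were 0.931% and 0.118%. The higher ones included peaks over Pou3f2, Pou3f3, Sox3 and Sox21, which are transcription factors of neural progenitors, over Fzd10, a Wnt receptor, and over Sall1. The lower ones lay over Gata6 (endoderm and heart), Hand2 (heart and limb) and Tfap2d, and at C430049B03Rik on the X chromosome, which overlaps no coding gene. All 16 averaged at least 20 tags per 10 M. They were called from the day-8 libraries described below, so a lack of overlap there adds nothing to the call.

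Gm38438 shares its peak with Sox3, on chromosome X. In CaPS cells it carried 399 and 395 tags per 10 M in ESC, 355 and 882 at day 6, and 342 and 799 at day 8. In WT cells it carried 504 and 526 in ESC, 156 and 182 at day 6, and 186 and 95.1 at day 8. CaPS lay below WT in ESC and above it at both later stages, with no overlap, so the ESC libraries add to the difference of the changes. The day-8 difference was 1.96 ± 0.37 (SE, adjusted p = 4.79e-05, limma), and the change from ESC differed between genotypes by 2.34 ± 0.52 (adjusted p = 0.00812).

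Gm30731, beside the neural POU factor gene Pou3f2, carried in CaPS cells 4393 and 4997 in ESC, 2828 and 6636 at day 6, and 2900.0 and 5800.2 at day 8. WT cells carried 4283 and 4163 in ESC, 1402 and 1465 at day 6, and 1158 and 468 at day 8. The CaPS day-8 values lay on either side of those of CaPS ESC, the WT day-8 values lay below every ESC value, and the genotypes did not overlap at day 8 (2.48 ± 0.55, SE, adjusted p = 0.00158, limma). The change from ESC did not differ past the threshold (2.33 ± 0.78, adjusted p = 0.31).

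Pantr1 and Pantr2 are transcribed next to Pou3f3. In CaPS cells Pantr2 carried 453 and 432 in ESC, 242 and 537 at day 6, and 167 and 369 at day 8. In WT cells it carried 537 and 621 in ESC, 184 and 259 at day 6, and 101.2 and 64.5 at day 8. CaPS lay below WT in ESC without overlap, which adds to the difference of the changes. The genotypes overlapped at day 6 and not at day 8 (1.61 ± 0.36, SE, adjusted p = 0.00174, limma), and the change from ESC differed by 1.99 ± 0.51 (adjusted p = 0.0386). At Pantr1, whose peak covers Pou3f3, the day-8 values were 1744 and 3371 in CaPS and 664 and 383 in WT (2.26 ± 0.49, adjusted p = 0.000887, limma).

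Kis2, on chromosome X, rose with time in CaPS: 61.5 and 88.9 in ESC, 122 and 330.4 at day 6, and 303 and 592 at day 8. In WT it held 40.3 and 78.8 in ESC, 43.0 and 47.3 at day 6, and 115 and 63.7 at day 8. CaPS and WT overlapped in ESC and not later, with a day-8 difference of 2.29 ± 0.36 (SE, adjusted p = 3.27e-07, limma). LOC105245869 (1.9, over Sox21), 5930412G12Rik (1.80, over Fzd10), Gm7854 (1.77), LOC106557447 (1.72), C630043F03Rik (1.63), 6530402F18Rik (1.55) and Mir8110 (1.41, over Sall1) made up the rest of the higher ones.

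Of the 4 lower members 1010001N08Rik, whose peak overlaps Gata6 on chromosome 18, had the largest difference. In CaPS cells it carried 1985 and 2143 in ESC, 383 and 819.7 at day 6, and 207 and 369 at day 8. The WT libraries carried 2208 and 1820.4 in ESC, 1777 and 1592 at day 6, and 742 and 2826 at day 8. The genotypes overlapped in ESC and separated at days 6 and 8, with WT of experiment 5 highest of all. The day-8 difference was -2.38 ± 0.44 (SE, adjusted p = 4.19e-05, limma), and the change from ESC differed by -2.43 ± 0.63 (adjusted p = 0.0417).

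Gm15825, over Tfap2d, held 115 and 157 at day 8 in CaPS and 347 and 890.0 in WT (-2.04, adjusted p = 6.53e-05, limma), and fell from ESC in both genotypes (-2.80 in CaPS, -1.05 in WT). C430049B03Rik held 25.6 and 55.8 at day 8 in CaPS and 93.5 and 299 in WT (-2.11, adjusted p = 3.35e-06). 5033428I22Rik, over Hand2 on chromosome 8, held 650.0 and 1246 in CaPS and 1999.8 and 6500.2 in WT (-2.0, adjusted p = 0.0473, limma). None of these 3 overlapped between genotypes at day 8, the stage at which they were called.

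The change from ESC to day 8 differed between genotypes at 3 members. It was more positive in CaPS at Gm38438 and Pantr2 (0.199% of all peaks were called this way) and more negative at 1010001N08Rik (0.0729% of all peaks). By day 6 it was more positive in CaPS at 3 members (0.351% of all peaks), Gm38438, D930032P07Rik and 9130019P16Rik, and more negative at none (0.0199% of all peaks, 16 members at an unadjusted p of 0.05, limma). By edgeR none was called at day 6, and 1 in each direction at day 8. Without the replicate block none was called at either day. When each of the 12 libraries was left out in turn, no member was more positive at day 8 for 4 of them, and none more negative for 8.

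The day-8 genotype calls rest mostly on experiment 5. Without WT day 8 of that experiment no member was called in either direction, and without CaPS day 8 of it 1 was higher and 1 lower. Without CaPS day 8 of experiment 3, 10 were higher and 2 lower. Without the replicate block 4 were higher and 3 lower. With the same sum over all peaks 16 were higher and 14 lower, and of the 16 named above 15 kept their call, with Mir8110 at an adjusted p of 0.082.

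The deposited day-8 table holds 1 more pair, CaPS and WT of experiment 4, which was not used for the calls and is a single pair with no test. All 12 members called higher were higher in CaPS there, and all 4 called lower were lower. In that pair 71.2% of the 208 members with a peak and 78.3% of all 5393 day-8 peaks were lower in CaPS, and the median log2 ratios were -0.64 and -0.88. The largest gains were at Mir8110 (1.81), Gm38438 (1.57), Kis2 (1.21) and C630043F03Rik (1.20), and the largest losses at 1010001N08Rik (-2.20) and Gm15825 (-1.96). In Gm38438 this was 139 tags per 10 M in CaPS against 45.9 in WT, and in 1010001N08Rik 276 against 1266.

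**Figure D3:**
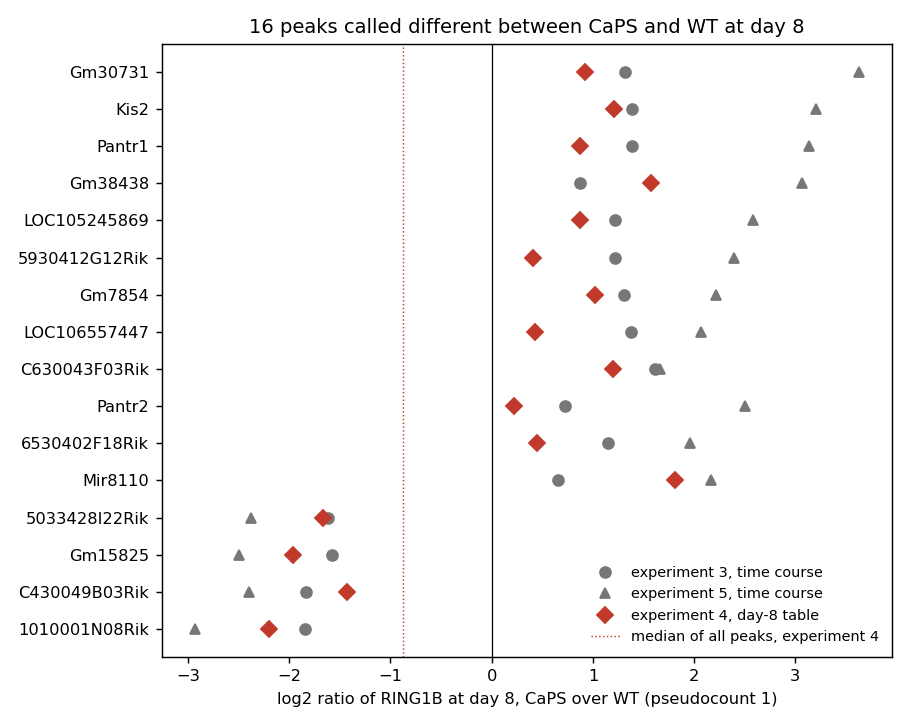
Log2 ratio of CaPS over WT RING1B at day 8 for the 16 member peaks that passed, within experiments 3 and 5 (grey) and in experiment 4 of the separate day-8 table (red diamonds); the dotted line is the median of all peaks of that table in experiment 4 (-0.88). The peaks were called from experiments 3 and 5, so only experiment 4, a single pair without a test, lies outside their choice. Each peak keeps its direction there.

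H3K27me3 at day 8 was deposited as 1 pooled column per genotype, so its values are the authors' and have no replicate check. At 1010001N08Rik it was 141 tags per 10 M in CaPS and 1828 in WT, and at Igf2os 129 and 1198. At Gm30731 it was 772 in CaPS and 241 in WT, at Pantr2 337 and 184, and at Gm38438 54.3 and 8.95. Of the 12 members called higher in RING1B, 11 had more H3K27me3 in CaPS, with C630043F03Rik (68.1 in CaPS and 98.5 in WT) the exception, and all 4 called lower had less. Less was counted in CaPS at 87.0% of the 215 members with a peak there. At Mir375, where RING1B overlapped between genotypes, H3K27me3 was 1191 in CaPS and 2642 in WT.

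Fewer members than coding peaks overlapped each of 7 other Polycomb peak sets, and among stronger peaks the order depended on the set. By at least 1 base 24.3% of members and 29.1% of coding peaks overlapped an ESC H3K27me3 ChIP peak, and 31.8% and 38.6% a day-8 H3K27me3 peak. Among peaks with a mean of at least 20 the shares were 59.0% of 234 members and 58.3% of 3565 coding peaks in ESC, and 68.4% and 68.1% at day 8. For ESC H3K27me3 measured by CUT&RUN, which uses antibody-directed nuclease in place of precipitation, they were 60.7% of members and 67.5% of coding peaks, against 29.9% and 38.7% over all peaks. RING1B CUT&RUN peaks in ESC overlapped 55.3% of all members and 94.9% of the stronger ones, where the share of stronger coding peaks was 93.1%. RING1B CUT&RUN peaks in embryoid bodies, aggregates differentiated without that neural protocol and taken at day 10, overlapped 36.7% of all members and 78.2% of the stronger ones, where the share of stronger coding peaks was 75.6%. None of these shares was tested.

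**Figure D4:**
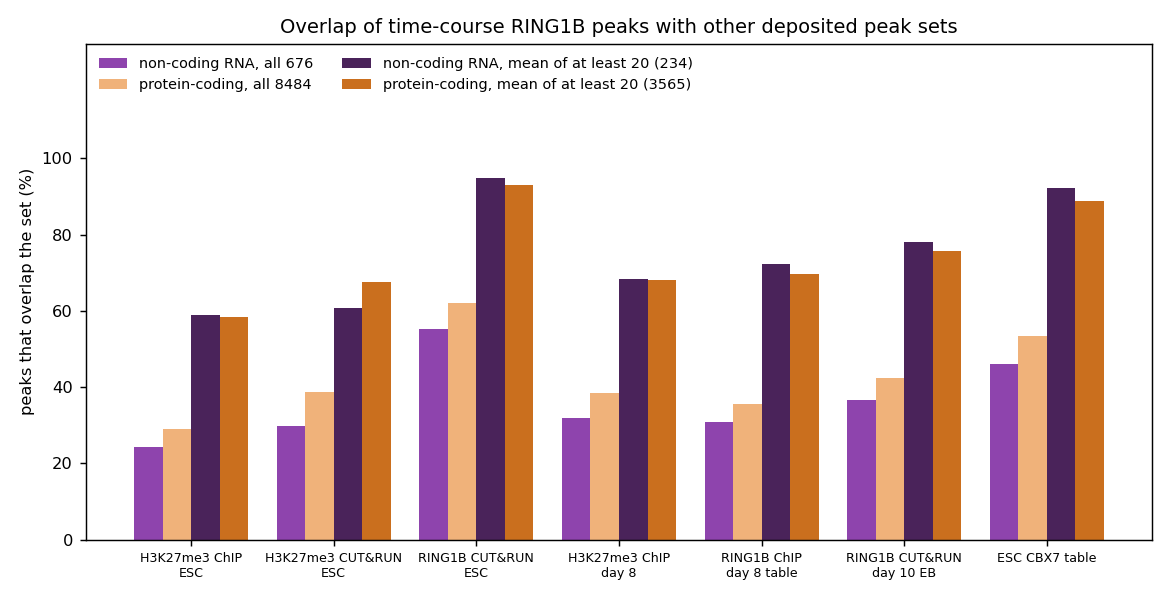
Share of member peaks and of coding peaks (percent) that overlap each of 7 other peak sets by at least 1 base, for all peaks and for those with a mean of at least 20 tags per 10 M. The gap between members and coding peaks over all peaks, 24.3% against 29.1% for ESC H3K27me3, is not seen among the stronger peaks, 59.0% against 58.3%, but for ESC H3K27me3 by CUT&RUN the stronger members stay lower, 60.7% against 67.5%.

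In ESC the CBX7 signal at the same genes was lower in CaPS. The deposited CBX7 table covers 6326 RING1B regions of ESC, of which 340 were annotated within 10 kb of 301 of the 599 member genes. CBX7 was lower at 158 of them (46.5%, against 44.3% of all 6326 regions) and higher at none (0.0632% of all; 0 of 340 also at an unadjusted p of 0.05), by limma with experiment as a block. The median log2 difference was -0.89, against -0.85 over all regions, and 216 of the 340 were lower in CaPS in all 3 experiments. The share of all 6326 regions that were lower in all 3 was not computed. Within experiments 1, 2 and 3, 85.0%, 85.9% and 79.1% of the 340 were lower. Of all regions 82.8%, 85.3% and 75.4% were lower, so the fall was not particular to these genes. The medians within experiments 1, 2 and 3 were -0.97, -1.21 and -0.45.

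At Gm38438 CBX7 was 94.0, 338 and 161 tags per 10 M in CaPS and 333, 886 and 300.4 in WT (experiments 1, 2 and 3). CaPS was lower in every experiment, although CaPS of experiment 2 exceeded WT of experiments 1 and 3. The difference was -1.37 ± 0.27 (SE, adjusted p = 9.13e-06, limma). At Miat it was 21.9, 68.4 and 33.5 in CaPS and 87.6, 206 and 82.6 in WT, and there the genotypes did not overlap (-1.60 ± 0.28, adjusted p = 6.95e-07).

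The largest differences were at weak peaks. A530088E08Rik held 4.98, 0 and 3.97 in CaPS and 16.8, 42.4 and 14.7 in WT (-2.89, adjusted p = 1.66e-07, limma), and Airn held 2.99, 0 and 5.19 against 11, 24.4 and 12.7 (-2.47, adjusted p = 2.92e-05). Mir17, of a microRNA cluster that promotes proliferation, and the clone-named Gm12409 and Gm5089 had -2.16, -2.16 and -2.14. The CaPS library of experiment 2 held 2.63 M tags, so that 3 tags come to 11.41 per 10 M, and its zeros lie within that limit.

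Of the 24 members with a mean CBX7 signal of at least 1000, 21 were lower in CaPS. Their differences ran from -1.51 at Evx1os to -0.67 at Mir9-3 with a median of -1.02. Over all 6326 regions of any size 44.3% were lower, with a median of -0.85. The share among all regions with a mean of at least 1000 was not computed, so this count cannot be set against that of other large regions. Dlx6os2 (-1.21, adjusted p = 0.00523), Fendrr (-1.25, adjusted p = 0.00167), Six3os1 (-1.01, adjusted p = 0.0199), Sox6os (-1.09, adjusted p = 0.00162) and 5033428I22Rik (-1.28, adjusted p = 0.00238, limma) were among those that passed, as did the smaller Gad1os (-1.56), Pantr2 (-1.01, adjusted p = 0.000964) and Mir375 (-0.87, adjusted p = 0.00404, limma). Hoxb5os held 3908, 11544 and 5811 in CaPS and 9093, 26018 and 7878 in WT, and with -0.94 (adjusted p = 0.0877) it did not pass, nor did Mir196a-2 (-0.97, adjusted p = 0.0903) or Mir9-3 (-0.67, adjusted p = 0.108, limma). No member had a higher value that passed. The 5 with the most positive differences were Mir3569 (1.00), 4930449E01Rik (0.81), 1700029M20Rik (0.58), 1700003L19Rik (0.51) and D730050B12Rik (0.51).

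By list, CBX7 was lower at 31 of 62 microRNA peaks, 14 of 22 opposite-strand peaks and 9 of 12 neural RNAs. It was lower at 0 of 3 Hox RNAs, 0 of 2 RNAs of pluripotent cells and 99 of 229 peaks with clone names, beside 44.3% of all 6326 regions. These shares are not matched for signal. The median CBX7 mean over all regions was 12.4, and of members with a mean of at least 1000, 21 of 24 passed. Neural peaks had a median RING1B mean of 330.6 in the time course, against 10.2 over members. Whether any list differs from regions of like signal was not tested. The calls depend on the experiment as a block and on the scaling. Without the block 1 of 340 was lower, and with the same sum over all regions 6 were lower and 5 higher, with the median of all regions at 0.11 in place of -0.85. Without experiment 1 the count was 71 and without experiment 2 it was 73, from fits with 2 libraries per genotype.

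The deposited ESC table of RING1B covers the same regions and had a median log2 difference of -0.71 at these 340, against -0.67 over all 6326, and no member passed (0.142% of all regions were lower and 0.0% higher, by limma), while 65 were lower at an unadjusted p of 0.05. The medians within experiments 1, 2 and 3 were -0.59, -1.49 and -0.08, so the experiments differed widely. Without experiment 3 there were 78 lower members, and among regions with a mean of at least 10 there were 4. The time course, which shares the libraries of experiment 3, had a median of 0.02 in ESC.

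**Figure D5:**
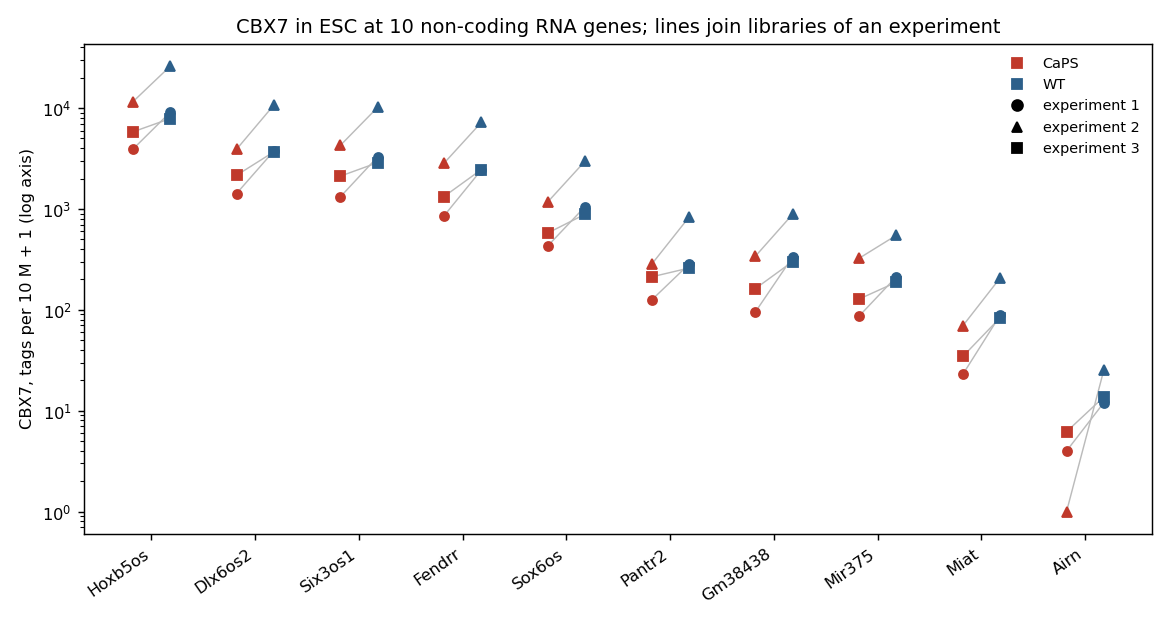
CBX7 in ESC as tags per 10 M plus 1 on a log axis for 10 member genes, in CaPS (left) and WT (right), with lines joining libraries of the same experiment. The lines run from lower CaPS to higher WT values in each of the 3 experiments at each gene shown, and the experiments differ in level.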

How the data were processed

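RING1B and CBX7 ChIP-seq signal was measured in mouse J1 cells. The authors deposited, per the file headers, one table per assay of peak intervals on mm10 with the nearest gene and a signal per library, the tags in the peak scaled to 10 M tags of that library. HOMER 4.10.4, SAMtools 1.9, Bowtie2 2.3.4.3 and cutadapt 1.14 are listed in the submitters' processing notes. Per the labels' protocols Drosophila chromatin was added as a spike-in; the sources used here do not say whether the totals were corrected for it.

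Each table was tested separately with limma 3.58.1 (R 4.3.3, trend, moderated test) on log2(value + 1), so fold changes of low peaks are understated. The 12 time-course libraries entered 1 fit with a group for each genotype and stage and the experiment as a block, and the ESC tables had 3 pairs each. P-values were adjusted by Benjamini-Hochberg over all 15091 or 6326 regions at 0.05. Pairing by experiment follows from the title numbers and the series design text, by which compared experiments were run together. Deviations of same-numbered libraries correlated at 0.06 to 0.22 in the time course, 0.04 to 0.30 in the CBX7 table and -0.02 to 0.23 in the ESC RING1B table. The prior degrees of freedom were estimated as infinite, so the spread was taken from the trend over all peaks.

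Whole read ends could be recovered from the time-course signal and were given to edgeR 4.0.16 as an alternative. This was done for the time course only, and edgeR was not run on the ESC tables. The other alternatives were a pseudocount of 5, a mean of at least 10, no block, the same sum over peaks, each library left out and members within 2 kb.

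Members and lists were chosen with earlier results of these data known. Named members were the 10 strongest (1 is not reported here), up to 10 called per comparison and direction with a mean of at least 20, those of the lists, and the 5 largest and smallest CBX7 differences. The fits were tested on simulated data. Sequences are from RefSeq (GRCm38.p6), matched by gene symbol. By gene ID 675 of 676 peaks were found among the RefSeq genes, and RefSeq calls the genes of 6 members coding. Of 383 starts 96.6% lay within 5 bases of the deposited distance. There were 2 columns of sample values that matched no sample here and were not used.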

Additional observations from a re-analysis of the deposited data

Results flagged for a closer look

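At 5 members the change from ESC to a later stage differed between CaPS and WT by the limma test of that difference, and each is given as the CaPS change minus the WT change on the log2 scale. At day 8 it was 2.34 at Gm38438 (adjusted p = 0.00812), 1.99 at Pantr2 (adjusted p = 0.0386) and -2.43 at 1010001N08Rik (adjusted p = 0.0417). At day 6 it was 2.1 at Gm38438 (adjusted p = 0.0243), 1.94 at D930032P07Rik (adjusted p = 0.0348) and 2.84 at 9130019P16Rik (adjusted p = 0.00937). D930032P07Rik, inside Glis3, held in CaPS cells 198 and 205 tags per 10 M in ESC and 106 and 206 at day 6, and in WT cells 322 and 271 in ESC and 62.9 and 49.8 at day 6. 9130019P16Rik, inside Wipf3 on chromosome 6, held in CaPS cells 24.6 and 10.3 in ESC and 27.4 and 45.4 at day 6, and in WT cells 50.0 and 55.0 in ESC and 12.8 and 17.4 at day 6. At these, and at Gm38438 (399 and 395 in CaPS, 504 and 526 in WT) and Pantr2 (453 and 432 in CaPS, 537 and 621 in WT), the genotypes already stood apart in ESC, with CaPS lower, so part of each value comes from the ESC libraries. On chromosome 6 the median CaPS minus WT difference in ESC over all peaks with a mean of at least 20 was -0.26, against -0.02 on the other chromosomes, and its part in the value at 9130019P16Rik was not tested. CaPS day 6 of experiment 5, which had 12.1% of its tags in peaks, enters all 3 day-6 values. No member was called more positive at day 6 without CaPS ESC, CaPS day 6, WT ESC or WT day 6 of experiment 5. None was more positive at day 8 without CaPS ESC, CaPS day 8 or WT day 8 of experiment 5, or without WT ESC of experiment 3, and none more negative at day 8 without any 1 of 8 of the 12 libraries. Without the replicate block 0 members were called in either direction at either day. Groups of 2 or 3 libraries allow no test for a library that stands apart at a single peak.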

How the results depend on the processing

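Counts of called members are given as lower then higher. Without the replicate block they were 11 and 7 for CaPS day 6 against ESC, 59 and 8 for CaPS day 8, 69 and 2 for WT day 6, 1 higher for WT day 8, 0 higher for CaPS against WT in ESC, 0 and 6 at day 6, 4 higher at day 8, 0 higher for the difference of changes at day 6, 0 and 0 at day 8, and 1 lower for CBX7. Most genotype counts thus change without the pairing by experiment, the cause was not tested, and 57 of 99 calls of single members held without it.

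With the same sum over peaks, in the same order, they were 49 higher, 49 and 40, 30 and 59, 49 and 52, 4 higher, 12 and 13, 14 lower at day 8, 6 lower and 9 and 6 for the differences of changes, and 6 and 5 for CBX7. By edgeR there were 11, 9 and 3 higher for CaPS day 6, CaPS day 8 and WT day 6, 0 and 7 higher for CaPS against WT in ESC and at day 6, and 0 and 1 higher for the differences of changes. With a pseudocount of 5 they were 0 higher in ESC, 4 and 38 at day 6, and 4 higher for the day-8 difference of changes. Members within 2 kb gave 25 lower for CaPS day 6 and 0 higher in ESC, and a mean of at least 10 gave 4 lower for RING1B of the ESC table.

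Leaving out single libraries gave 6 to 43 lower and 1 to 32 higher for CaPS day 6, 48 to 133 and 3 to 21 for CaPS day 8, 31 to 139 and 0 to 13 for WT day 6, and 96 to 166 and 1 to 11 for WT day 8. For CaPS against WT it gave 0 to 5 and 0 to 6 in ESC, 1 to 9 and 1 to 75 at day 6, and 0 to 6 and 0 to 16 at day 8. For the differences of changes it gave 0 to 2 and 0 to 29 at day 6, and 0 to 3 and 0 to 7 at day 8. Leaving out an experiment gave 71 to 157 lower and 0 higher for CBX7, and 0 to 78 lower and 0 higher for RING1B. A lone library in a group was assumed to vary like the others.

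With an overlap of at least 50% of the member, 12.6%, 26%, 45.3%, 22.8%, 15.2%, 17% and 37.7% of members overlapped ESC H3K27me3 ChIP, ESC H3K27me3 CUT&RUN, ESC RING1B CUT&RUN, day-8 H3K27me3, day-8 RING1B, embryoid body RING1B and the ESC CBX7 table. Among members with a mean of at least 20 and an overlap of 1 base the shares were 59.0%, 60.7%, 94.9%, 68.4%, 72.2%, 78.2% and 92.3%.

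Over 1683 alternative values of the 99 named calls, which were chosen for large changes, 1435 kept the call, 248 lost it and 0 changed sign. Depth limits the weakest members most, since in experiment 5 a count of 3 tags comes to as much as 14.95 tags per 10 M, above the median member.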

Other observations

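In day-10 embryoid bodies, with 1 RING1B CUT&RUN library per genotype and so no test, 13 of the 16 members that differed between genotypes in day-8 NPC had a peak. Of the 10 that were higher in CaPS NPC, 6 were higher in CaPS embryoid bodies and 4 lower. The 3 that were lower in CaPS NPC were lower there too, at ratios of 0.77 to 0.88. The share of all embryoid body peaks that were lower in CaPS was not computed. These counts therefore cannot be told apart from a shift of the whole library. The ratio of CaPS over WT ran from 0.66 at Pantr2 to 1.85 at C630043F03Rik. The members named next were chosen after their values were seen. Gm30731 held 744 tags per 10 M in CaPS and 679.6 in WT, Pantr1 held 339 in CaPS and 344 in WT, and Gm38438 held 9.76 in CaPS and 13 in WT. 1010001N08Rik held 191 in CaPS and 247 in WT, Gm15825 held 50.4 in CaPS and 60.2 in WT, and 5033428I22Rik held 592 in CaPS and 674 in WT. The assay, the stage and the differentiation protocol all differ from those of the NPC, so the levels are not comparable between them.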
